A study of Mus musculus with 6 samples.

Results

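The proteasome is the protease complex that degrades proteins tagged with ubiquitin, and its subunits are encoded by the Psma, Psmb, Psmc and Psmd genes. Probes for these genes and for the Psme activators were taken by symbol, as every symbol made of Psm, a letter from a to e and a number, with Psmb8, Psmb9 and Psmb10 left out. The rule found 56 probes for 38 gene symbols among 25697 probes for 18138 symbols on the array. It also caught Psmc3ip, a meiotic recombination gene named after its contact with Psmc3 and no part of the proteasome, so 37 of the symbols are genes of the complex, its activators or its assembly factors.

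RNA from the lungs of FVB males (FVB/N in the methods), taken at postnatal day 6, was hybridised to Illumina MouseRef-8 BeadChips, 1 array for each of 3 hSRY-OFF and 3 hSRY-ON mice. The question behind the comparison was how lung transcripts change once SRY, the human sex-determining gene, is switched on. Per the study's methods, the transgene (Signalox-hSRY) is a single copy integrated at the H11 locus, in which the broadly active CAG promoter drives DsRed2 until Cre recombination places FLAG-tagged human SRY and EGFP behind that promoter. The hSRY-OFF mice, as that name is defined there, carry the transgene without recombination. The hSRY-ON mice had Ddx4-Cre mothers whose eggs supplied the recombinase, were recombined from the first cell onwards, and were chosen not to carry Ddx4-Cre themselves. The study uses the word control for littermates without the transgene as well, so the transgene in the hSRY-OFF mice rests on their label. All transgenic mice come from 1 integration.

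In the complex, 2 rings of alpha subunits (Psma) close off a barrel made of 2 rings of beta subunits (Psmb), and the proteolytic sites lie inside. A regulatory particle docks on the barrel. Its base holds a ring of ATPases (Psmc) that unfold the substrate, and its lid and scaffold (Psmd) bind ubiquitin chains and cut them off. The Psme proteins are other caps that open the barrel. Nearly every cell needs the complex, and its subunit genes are often regulated together, with the factor NFE2L1 raising many of them when proteasome activity falls short.

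Between 43 and 46 of the 56 probes were detected per array at a detection p under 0.05, and 45 probes for 33 symbols were detected on at least 3 of the 6 arrays and tested. The other 11 were not well above background. They were the probes of Psma1, Psma3, Psma6 and Psmc6, both probes of Psmd6, 2 of 3 for Psmd11, 1 of 3 for Psmb2 and 1 of 2 for each of Psmd12 and Psmd5. This describes those probes on this array and gives no level for the genes. Values below are normalized log2 intensities, and a change is hSRY-ON minus hSRY-OFF on that scale. A probe was called when its adjusted p was under 0.05 (limma, two-sided, Benjamini-Hochberg over all 13841 tested probes).

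Of the 45 tested proteasome probes, 6 were called, 2 higher and 4 lower in hSRY-ON lungs (limma). They belong to Psmd9 and Psme4, which were higher, and to Psmc5, Psmd2, Psmd7 and Psmd11, which were lower. This is 13.3% of the probes, where 26.9% of all tested probes were called. By direction, 4.44% were called higher, where the array gave 13.6%, and 8.89% lower, where it gave 13.3%. No fitted change reached 2-fold in the proteasome probes, whereas 10.3% of all tested probes did. Fitted changes ran from -0.76 to 0.48, with a median absolute size of 0.15, and the same median over all probes was 0.32. The proteasome probes were also brighter, with a median level of 10.97 against 8.3 over all probes. At or above 10.97 their median absolute change was 0.11, where all probes of that level gave 0.24. Below it these medians were closer, 0.28 and 0.34. The shares called were 8.7% against 24.7% at or above that level, and 18.2% against 27.3% below it. These shares and medians describe the set and were not tested. In bulk tissue, fewer cells of a type and less RNA per cell cannot be told apart.

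**Figure D1:**
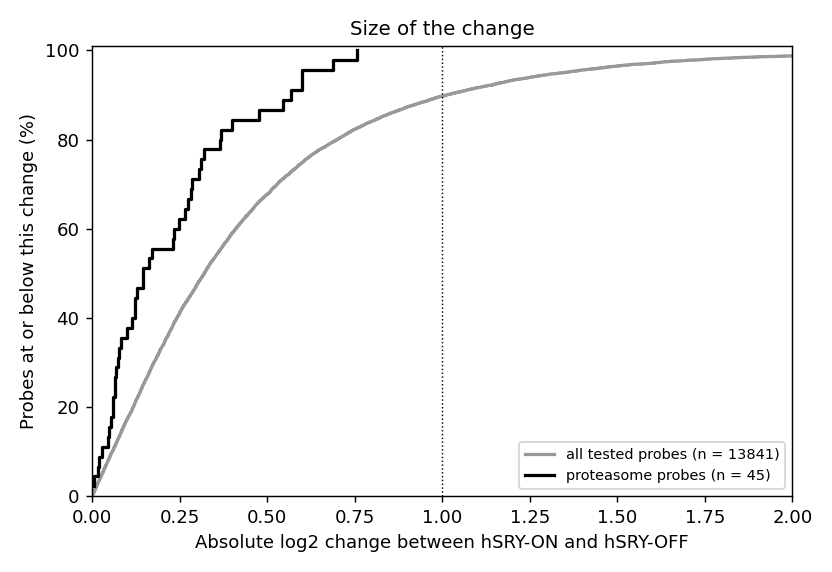
Share of probes (vertical axis, percent) whose absolute log2 change between hSRY-ON and hSRY-OFF is at or below the value on the horizontal axis, for the 45 tested proteasome probes (black) and all 13841 tested probes (grey). The dotted line marks a 2-fold change. The proteasome curve reaches the top before it, and 10.3% of all probes lie at or beyond it.

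The intervals say how large a change could have been missed under the scaling of the main fit. They do not cover the choice of scaling. With median scaling the change of Psmb4 was 0.22, beyond its interval of -0.33 to 0.2. For 40 of the 45 probes (88.9%) the 95% interval of the change lay within 2-fold in either direction, and for 29 (64.4%) within 1.5-fold. The shares over all tested probes were 70.7% and 32.8%. The median SD of a proteasome probe was 0.0774 in hSRY-OFF and 0.166 in hSRY-ON. Over all tested probes, which were dimmer at the median, it was 0.130 and 0.223.

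Most fitted changes were small and below 0. There were 36 below and 9 above (with 46.8% above 0 on the whole array), with a median of -0.10, where the median over all probes was -0.03. The sign of the proteasome median rested on the scaling between arrays, being 0.02 when arrays were scaled on their median and -0.01 with a single scaling factor and no background correction. The median over all probes moved as well, to 0.02 and 0.04 in turn. The proteasome median also leaned on 1 mouse. The array of hSRY-ON replicate 2 had the lowest of the 6 values in 26 of the 45 probes, and without that array the median was -0.03, against -0.04 for all probes. Values of the groups did not overlap for 11 probes lower in hSRY-ON (24.4%, with 24.1% on the whole array) and for 4 probes higher (8.89%, with 22.4%), together 15 probes, where 46.6% of the whole array did not overlap in either direction.

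**Figure D2:**
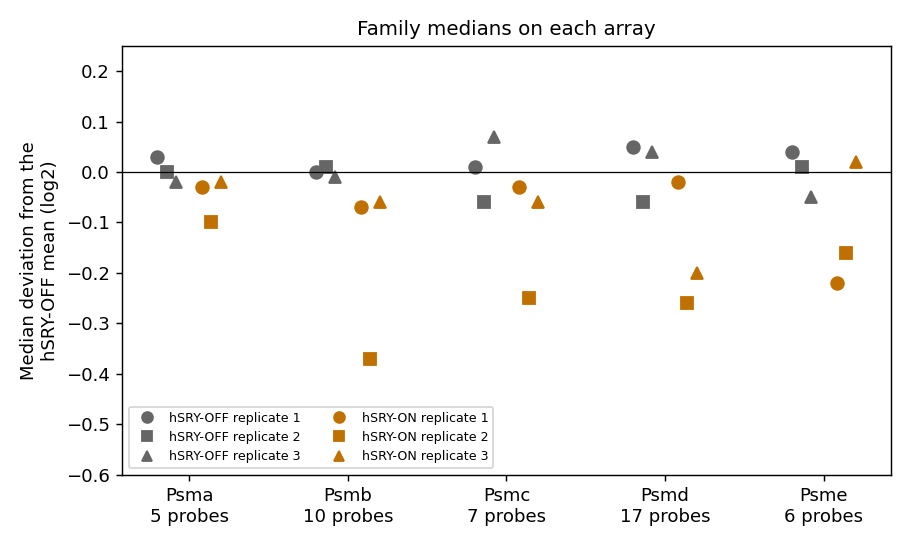
Median deviation from the hSRY-OFF mean (log2) over the tested probes of each family, on each array. Grey marks are hSRY-OFF and orange marks hSRY-ON arrays, with the shape giving the replicate. The hSRY-ON replicate 2 array (orange squares) is lowest in the Psma, Psmb, Psmc and Psmd families, at -0.37 for Psmb, and hSRY-ON replicate 1 is lowest in Psme.

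The number of calls leaned on single arrays. Without hSRY-OFF replicate 1, 2 or 3 it was 0 each time (limma), when 7, 7 and 9 probes in turn had an unadjusted p under 0.05, and 11.2%, 12.1% and 15.5% of all tested probes were called. Without hSRY-ON replicate 2 it was 2, for Psmc5 and Psmd11, with 17.7% of all probes called. Without hSRY-ON replicate 1 it was 8 and without hSRY-ON replicate 3 it was 6, with 32.3% and 27.7% of all probes called. At an adjusted p under 0.01 no proteasome probe was called (limma) and 9.58% of all probes were, and 11 proteasome probes had an unadjusted p under 0.05. None of the 6 called probes took the other sign in any fit.

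**Figure D3:**
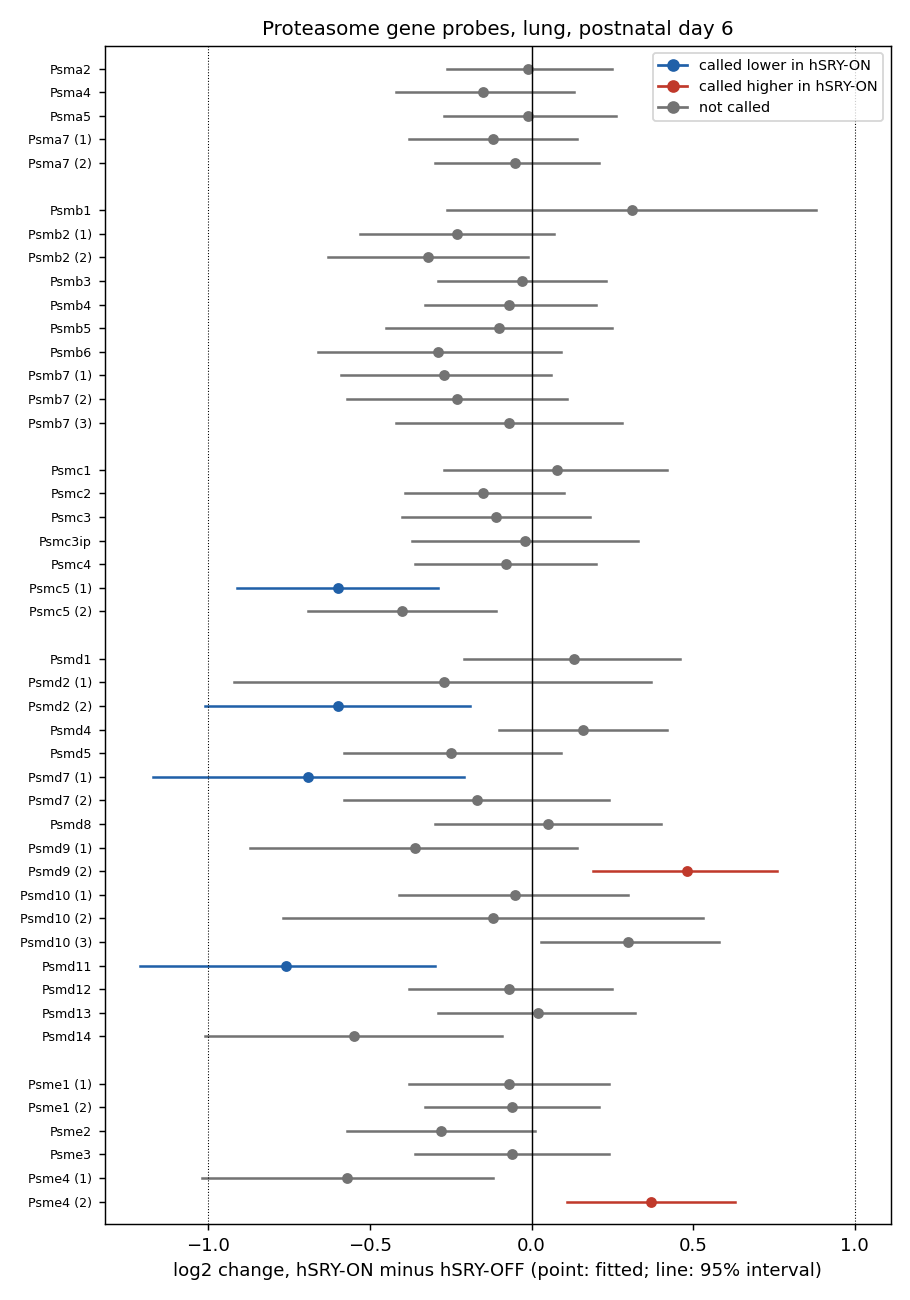
Fitted log2 change (point) and its 95% interval (line) for each of the 45 tested proteasome probes, grouped by family, with numbers in brackets for genes with several probes. Blue marks the 4 probes called lower and red the 2 called higher in hSRY-ON; dotted lines mark 2-fold changes. All intervals of the Psma and Psmb probes lie within 2-fold.

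In the core particle, none of the 15 tested Psma and Psmb probes, for 11 genes, was called (limma), and 1 had an unadjusted p under 0.05, where 26.9% of the array was called. All 15 intervals lay within 2-fold and 11 within 1.5-fold, where the array gave 70.7% and 32.8%. Fitted changes were below 0 for 14 of the 15, with a median of -0.10 that carries the scaling limit above.

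Among the alpha subunits, which form the outer rings and the gate of the barrel, all 5 tested probes had intervals within 1.5-fold. Psma4 read 12.70, 12.81 and 12.71 in hSRY-OFF and 12.53, 12.52 and 12.72 in hSRY-ON lungs, a change of -0.15 ± 0.12 (SE, limma, adjusted p = 0.385). The groups overlapped only through hSRY-ON replicate 3. Psma7 had 2 probes. On ILMN_2630328 it read 12.21, 12.18 and 12.16 against 12.04, 11.97 and 12.15, which do not overlap although the change was -0.12 (adjusted p = 0.439). On ILMN_2793488 it read 12.28, 12.39 and 12.31 against 12.32, 12.23 and 12.29, with a change of -0.05. Psma2 read 13.67, 13.60 and 13.54 against 13.57, 13.57 and 13.66, and Psma5 read 13.11, 12.99 and 13.11 against 13.14, 12.97 and 13.08. For both the fitted change was -0.01 at an adjusted p of 0.977 (limma), and the intervals were -0.26 to 0.25 and -0.27 to 0.26. With median scaling the changes of Psma2 and Psma5 were 0.25 and 0.21, not called (limma, adjusted p = 0.137 and 0.214).

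The 3 catalytic beta subunits were not called. Psmb5, which carries the chymotrypsin-like site, read 7.93, 8.09 and 7.86 in hSRY-OFF and 8.0, 7.61 and 7.97 in hSRY-ON lungs, a change of -0.10 (limma, adjusted p = 0.648). Psmb6, with the caspase-like site, read 11.90, 11.94 and 11.84 against 11.90, 11.36 and 11.57. Its change was -0.29 ± 0.16 (SE, adjusted p = 0.220), and replicate 1 of hSRY-ON sat at the hSRY-OFF level. With that array left out, Psmb6 was called lower at -0.43 (limma, adjusted p = 0.0427), but the array was picked for its value. Without hSRY-ON replicate 2 or 3 instead, the change was -0.16 or -0.26 and not called (adjusted p = 0.476 and 0.323).

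Psmb7, with the trypsin-like site, had 3 tested probes, and all 3 lay below 0. ILMN_1221340 read 12.36, 12.39 and 12.34 against 11.98, 11.96 and 12.35, a change of -0.27 (limma, adjusted p = 0.194), and here hSRY-ON replicate 3 was the one at the hSRY-OFF level. Without it the probe was called lower (limma, adjusted p = 0.0465), and without hSRY-ON replicate 1 or 2 instead it was not (0.313 and 0.383). ILMN_1233153 read 11.75, 11.72 and 11.72 against 11.71, 11.25 and 11.52, which just fail to overlap, at -0.23. ILMN_2836147 read 10.20, 10.23 and 10.33 against 10.44, 9.98 and 10.13, which overlap, at -0.07. The mouse closest to hSRY-OFF thus differed between Psmb6 and this Psmb7 probe.

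The other beta subunits are structural. Psmb2 gave the smallest p of the core. Its probe ILMN_2949632 read 12.78, 12.67 and 12.63 in hSRY-OFF and 12.42, 12.19 and 12.52 in hSRY-ON lungs, without overlap, a change of -0.32 ± 0.13 (SE, limma, adjusted p = 0.111). It was called with a variance trend and robust estimation (adjusted p = 0.0391). ILMN_2765890, another probe of Psmb2, read 12.89, 12.78 and 12.87 against 12.59, 12.46 and 12.79, with overlap at 1 value and a fitted change of -0.23 (limma, adjusted p = 0.215). Psmb3 read 13.03, 13.04 and 12.89 against 13.01, 12.95 and 12.92, a change of -0.03 (limma, adjusted p = 0.870). The fitted change was -0.07 for Psmb4 and 0.31 for Psmb1, which had the widest interval of the core, -0.26 to 0.88.

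The regulatory particle held the 4 probes that were lower. Its 14 tested genes, leaving out the assembly chaperones, had 17 tested probes. Of these, 4 were called lower and 0 higher (limma, with 0 at an unadjusted p under 0.05 in the higher direction). Among the 4, the Psmd2 probe was detected on 3 hSRY-OFF arrays and 1 hSRY-ON array, so its hSRY-OFF arrays alone met the detection filter. On the array, 13.3% was called lower and 13.6% higher. In either direction the particle had 23.5% called, where the array had 26.9%. The assembly chaperones left out had 6 tested probes, with 1 called higher and 0 lower. The median change of the 17 particle probes was -0.15, where the array gave -0.03. The difference in calls between the core and the regulatory particle was not tested.

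Psmc5 encodes an ATPase of the base and was the clearest of the 4. Its probe ILMN_1220632 read 11.35, 11.24 and 11.45 in hSRY-OFF and 10.77, 10.57 and 10.89 in hSRY-ON lungs. All 3 hSRY-ON values lay below all hSRY-OFF values. The change was -0.60 ± 0.13 (SE, limma, adjusted p = 0.0171), so the level fell by 34.0%. The call was lost without hSRY-OFF replicate 1, 2 or 3 (adjusted p = 0.0688, 0.0506 and 0.0656), and the change over all alternatives stayed between -0.67 and -0.47. ILMN_1251877, a further probe of Psmc5, read 10.96, 10.97 and 11.16 against 10.64, 10.51 and 10.73, also without overlap. Its change of -0.40 just missed the threshold (adjusted p = 0.0526), and it passed under 6 of 17 alternatives.

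The other ATPases of the base were not called. Psmc2 read 12.88, 12.83 and 12.89 against 12.74, 12.73 and 12.69, which do not overlap, with a change of -0.15 ± 0.10 (SE, limma, adjusted p = 0.334). Psmc1, Psmc3 and Psmc4 had fitted changes of 0.08, -0.11 and -0.08, with adjusted p between 0.523 and 0.724 (limma). Psmc3ip, caught by its name alone, read 10.71, 10.51 and 10.67 against 10.82, 10.37 and 10.64, a fitted change of -0.02 (adjusted p = 0.935). Leaving it out left the 6 calls as they were among 44 probes.

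Psmd11, Psmd7 and Psmd14 belong to the lid. Psmd11, which helps to clamp the lid onto the core, read 8.34, 7.93 and 8.20 in hSRY-OFF and 7.52, 7.63 and 7.04 in hSRY-ON lungs on its 1 tested probe, ILMN_2888116. No hSRY-ON array reached the lowest hSRY-OFF value. The change was -0.76 ± 0.19 (SE, limma, adjusted p = 0.0286), so the level fell by 40.8%. It lost its call without hSRY-OFF replicate 1, 2 or 3 (adjusted p = 0.105, 0.0525 and 0.0857) and with the replicate block (0.0569). Without background correction the change was -0.46.

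Psmd7 is the partner of the deubiquitinase Psmd14, and its 2 probes gave different sizes. ILMN_1220284 read 10.05, 9.72 and 9.79 against 9.59, 8.96 and 8.94, without overlap, a change of -0.69 ± 0.20 (SE, limma, adjusted p = 0.0447). The call was lost without hSRY-OFF replicate 1, 2 or 3 and without hSRY-ON replicate 2 or 3, with adjusted p between 0.0965 and 0.149 and changes between -0.76 and -0.58, and also with cyclic loess (0.0539) and with no detection filter (0.0649). ILMN_2630438 read 10.93, 10.98 and 11.19 against 11.20, 10.69 and 10.71, a fitted change of -0.17 (adjusted p = 0.498). On that probe hSRY-ON replicate 1 was the highest of the 6 arrays.

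Psmd14, the deubiquitinase that removes ubiquitin chains before the substrate enters, read 7.73, 7.14 and 7.50 against 7.16, 6.68 and 6.90. The groups overlapped by a single pair of arrays, and the change of -0.55 ± 0.20 (SE) was not called (limma, adjusted p = 0.0784). Leaving out hSRY-ON replicate 1, the highest of its group, brought it past the threshold (limma, adjusted p = 0.0440). Leaving out hSRY-ON replicate 2 or 3 instead did not (0.198 and 0.132). Without background correction the change was -0.28 (adjusted p = 0.0819). Of the other lid genes, Psmd8, Psmd12 and Psmd13 had fitted changes of 0.05, -0.07 and 0.02 (limma, adjusted p between 0.745 and 0.934). Psmd13 had the largest p of the Psmd family, with values of 12.79, 12.71 and 12.86 against 12.62, 12.87 and 12.93.

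Psmd1 and Psmd2 are the large scaffold subunits and Psmd4 a ubiquitin receptor. Psmd2 was called on a probe near background, ILMN_2682947, which was detected on 3 hSRY-OFF arrays and 1 hSRY-ON array. It read 5.87, 6.03 and 5.99 against 5.72, 5.20 and 5.17, a change of -0.60 (limma, adjusted p = 0.0412). This call held under 4 of 16 alternatives, and was lost among others without hSRY-OFF replicate 1, 2 or 3 (adjusted p = 0.0990, 0.132 and 0.114), without hSRY-ON replicate 2 or 3 (0.112 and 0.0881) and without background correction, where the change was -0.17 (adjusted p = 0.143). Its probe ILMN_2682945 read 6.30, 6.48 and 5.77 against 6.32, 5.43 and 5.99, a fitted change of -0.27 (adjusted p = 0.486).

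Psmd4 had a fitted change above 0 that did not pass the threshold. It read 12.92, 12.96 and 12.90 in hSRY-OFF and 13.05, 13.19 and 13.02 in hSRY-ON lungs, without overlap, a change of 0.16 (limma, adjusted p = 0.313). It was called higher with a single scaling factor and no background correction, at 0.34 (adjusted p = 0.0331). Psmd1 had a fitted change of 0.13 (adjusted p = 0.528).

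Psmd5, Psmd9 and Psmd10 are chaperones that assemble the ATPase base and leave it when it is complete. Psmd9 was called higher on ILMN_2594811, which read 6.93, 6.76 and 6.99 against 7.28, 7.46 and 7.36, a change of 0.48 ± 0.12 (SE, limma, adjusted p = 0.0280), or 39.0% above hSRY-OFF. The call was lost without hSRY-OFF replicate 1, 2 or 3 (adjusted p = 0.0890, 0.113 and 0.0606) and without hSRY-ON replicate 2 (0.0715). It was also lost with a variance trend and robust estimation (0.0609) and with the replicate block. Without background correction the change was 0.24. Its probe ILMN_2593662, detected on 1 hSRY-ON array, read 5.24, 5.47 and 5.92 against 5.47, 5.01 and 5.05, a change of -0.36 that was not called (adjusted p = 0.243).

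Psmd10, also known as gankyrin, had 3 tested probes, and none was called (limma; 1 had an unadjusted p under 0.05). ILMN_3003308 read 10.59, 10.41 and 10.62 against 10.88, 10.82 and 10.84, without overlap, at 0.30 (adjusted p = 0.0903), and it was called under 4 of 17 alternatives, median scaling among them. ILMN_1239384 and ILMN_2694080 had fitted changes of -0.05 and -0.12. Psmd5 had a fitted change of -0.25 on its tested probe (adjusted p = 0.230).

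The Psme genes encode caps that open the core without ATP. Psme4, a nuclear cap also called PA200, had 2 probes with fitted changes of opposite sign. ILMN_2947187 read 11.55, 11.53 and 11.67 in hSRY-OFF and 11.88, 11.96 and 12 in hSRY-ON lungs. The groups did not overlap, and the rise of 0.37 ± 0.11 (SE) was called (limma, adjusted p = 0.0478). It lost its call without hSRY-OFF replicate 1, 2 or 3 (adjusted p = 0.158, 0.159 and 0.0893) and without hSRY-ON replicate 2 or 3 (0.0928 and 0.0839). The replicate block lost it as well, and changes ran from 0.34 to 0.51 over all alternatives. ILMN_1230087 read 6.09, 6.08 and 5.95 against 5.14, 5.42 and 5.86, which do not overlap in the other direction, a change of -0.57 that was not called (adjusted p = 0.0653). This probe lay near background and was detected on 2 of the 3 hSRY-ON arrays. Its change was -0.16 without background correction, -0.34 with an offset of 50 and -0.09 with a single scaling factor and no background correction. Array weights (adjusted p = 0.0429) or leaving out hSRY-ON replicate 3, the highest of its group (0.0117), made it a lower call. No other of its 16 alternatives did.

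Psme1 and Psme2 form the interferon-inducible cap PA28, and neither was called. The probes of Psme1 read 11.87, 11.91 and 11.89 against 11.68, 11.75 and 12.04, and 12.82, 12.84 and 12.74 against 12.75, 12.62 and 12.85, with changes of -0.07 and -0.06. Psme2 read 10.28, 10.16 and 10.17 against 9.84, 9.83 and 10.08, without overlap, a change of -0.28 ± 0.12 (SE, limma, adjusted p = 0.130). Psme3, which forms a nuclear cap on its own, read 11.21, 11.12 and 11.03 against 10.90, 11.17 and 11.11, a fitted change of -0.06 (adjusted p = 0.758).

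**Figure D4:**
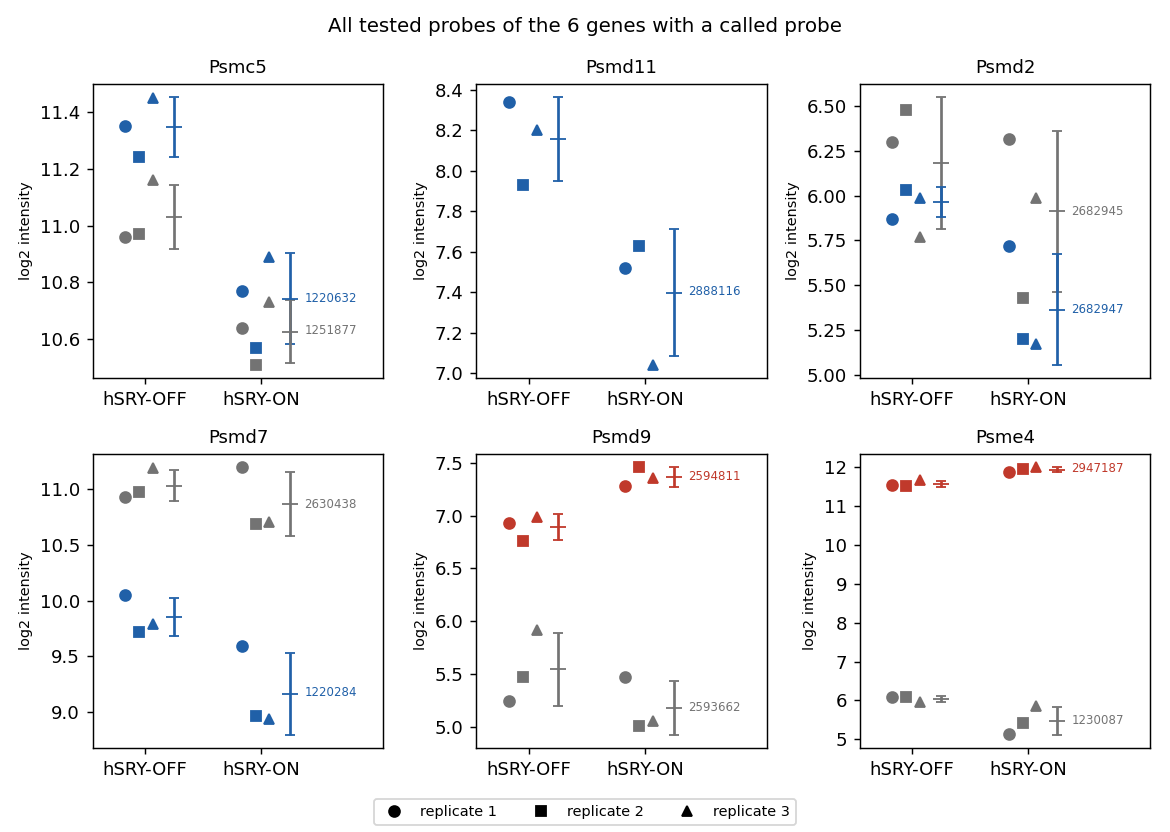
Normalized log2 intensity of every tested probe of the 6 genes with a called probe, by group, each panel on its own axis, which does not start at 0. Marks are single arrays (shape gives the replicate), bars the mean and SD of 3 arrays, and numbers the probe (ILMN identifier). Blue probes were called lower, red ones higher and grey ones were not called. For Psmd9 and Psme4 the grey probe lies lower in hSRY-ON on average while the red one lies higher.

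For 5 of the 6 called genes another probe was tested. The distance between both probes on an array, as called minus other probe, is given as a description with no test, since the genes were picked for having a called probe. For Psmc5 it was 0.39, 0.28 and 0.29 in hSRY-OFF and 0.13, 0.07 and 0.15 in hSRY-ON lungs, and for Psmd7 it was -0.88, -1.25 and -1.40 against -1.61, -1.72 and -1.76. For Psmd2, whose called probe lay near background, it was -0.43, -0.46 and 0.22 against -0.60, -0.23 and -0.82, which overlap. For Psme4 and Psmd9 the other probe lay near background, detected on 2 and 1 of the 3 hSRY-ON arrays, and the size of its change moved with the background correction, so no distance is given. Over all 10 genes with several tested probes, the probes of Psmd9, Psmd10 and Psme4 had fitted changes of both signs, and those of the other 7 were all below 0.

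Promoters were read for the members because proteasome subunit genes are known targets of NFE2L1 and NFE2L2, which bind the antioxidant response element. RefSeq windows (GRCm38.p6, 250 bases before to 50 after the start site) were found for 32 of the 37 genes. The core of the element, TGANNNNGC on either strand, occurred in 20 of the 35 windows of these genes (57.1%) and in 41.3% of all 32851 windows. The CCAAT box, searched on either strand as CCAAT, occurred in 34.3% and 37.4%. Of the called genes, Psmd9 and Psme4 (higher) held the response element core, while Psmc5, Psmd11 and Psmd2 (lower) held neither motif. Psmd7 had no entry. These 5 genes are a description, and a match of letters shows no binding. The stretch from 150 bases before to 30 after the start site is shown for 2 genes of each direction, with the 9 letters of the element core in capitals and the rest in lower case, 5′ to 3′ on the gene's strand (plus for all 4). The core starts 31 bases before the start site in Psmd9 and 7 bases before it in Psme4.
Psmc5 (lower in hSRY-ON, chr11:106256035-106256214): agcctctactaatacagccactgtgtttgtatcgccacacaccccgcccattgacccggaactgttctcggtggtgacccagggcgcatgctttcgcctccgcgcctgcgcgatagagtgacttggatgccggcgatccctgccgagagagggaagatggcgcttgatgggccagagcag
Psmd11 (lower in hSRY-ON, chr11:80428465-80428644): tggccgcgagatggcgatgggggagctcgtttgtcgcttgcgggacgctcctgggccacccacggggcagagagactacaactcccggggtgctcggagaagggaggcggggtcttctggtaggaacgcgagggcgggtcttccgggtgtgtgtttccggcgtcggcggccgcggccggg
Psmd9 (higher in hSRY-ON, chr5:123228040-123228219): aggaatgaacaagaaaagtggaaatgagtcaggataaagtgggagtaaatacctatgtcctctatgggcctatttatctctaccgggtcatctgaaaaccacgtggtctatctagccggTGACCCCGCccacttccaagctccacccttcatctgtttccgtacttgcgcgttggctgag
Psme4 (higher in hSRY-ON, chr11:30771625-30771804): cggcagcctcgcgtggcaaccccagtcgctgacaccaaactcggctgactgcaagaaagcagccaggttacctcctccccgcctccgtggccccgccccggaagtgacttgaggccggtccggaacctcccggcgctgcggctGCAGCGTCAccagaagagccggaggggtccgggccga

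Outside the subunits, a list of other genes of the pathway was examined, drawn from textbook knowledge. It had 44 probes for 28 symbols, and 33 probes were tested, of which 2 were called lower and 0 higher (limma; 1 had an unadjusted p under 0.05 in that direction). The 6.06% called compares with 26.9% on the array. The median change was -0.19.

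The called genes were Psmf1 and Uba1. Psmf1, or PI31, binds the core and inhibits it in vitro. Its probe ILMN_3094023 read 6.87, 6.71 and 6.91 in hSRY-OFF and 6.18, 5.72 and 6.11 in hSRY-ON lungs, without overlap, a change of -0.83 ± 0.15 (SE, limma, adjusted p = 0.0102). This call held under all 17 alternatives tried, with adjusted p up to 0.0490. Over the background corrections and scalings the change ranged from -0.84 to -0.28, and it was -0.31 without background correction. The other Psmf1 probe, ILMN_1233929, read 10.89, 10.79 and 10.72 against 10.84, 10.68 and 11.02, a fitted change of 0.05 (adjusted p = 0.800).

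Uba1 is the main enzyme that activates ubiquitin. Its tested probe ILMN_2430374 read 13.14, 13.14 and 12.92 against 12.36, 12.36 and 12.62, with no overlap (limma, change -0.62, adjusted p = 0.0158), so the level fell by 35.0%. The call was lost without hSRY-OFF replicate 1 or 2 (adjusted p = 0.0705 and 0.0707) and with the replicate block. The ubiquitin genes Ubb and Rps27a had fitted changes of -0.14 and -0.35 and were not called (adjusted p = 0.364 and 0.0930).

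The immunoproteasome subunits Psmb8, Psmb9 and Psmb10 replace the 3 catalytic subunits in immune cells and after interferon. None of their 4 probes was called (limma; 1 had an unadjusted p under 0.05). Psmb8 read 7.90, 8.10 and 7.83 against 7.52, 7.28 and 7.83, a fitted change of -0.40 (adjusted p = 0.115). Psmb9 spread most, from 8.01 to 9.45 in hSRY-ON and from 9.11 to 9.41 in hSRY-OFF, with a change of -0.52 (adjusted p = 0.287). The Psmb10 probes had fitted changes of -0.23 and -0.20. Whether these values differ from those of the catalytic subunits they replace was not tested.

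Assembly factors and regulators of the pathway stayed below the threshold apart from Psmf1. Pomp, which matures the core, had a fitted change of -0.10 (limma, adjusted p = 0.576). Psmg1 (Dscr2 on the array) and Psmg3, of the chaperone complexes of the core, had fitted changes of -0.25 and -0.32 (adjusted p = 0.199 and 0.108). Psmg2 had fitted changes of -0.82 on one probe and -0.05 on the other, neither called. Nfe2l1, which encodes the factor named above, read 10.94, 11.24 and 11 against 10.92, 10.73 and 10.60, a change of -0.31 (adjusted p = 0.145), and Nfe2l2 had a fitted change of -0.36 (adjusted p = 0.417). The shuttle factors and the p97 ATPase complex had 10 tested probes, from -0.39 for Rad23b to 0.39 for Nploc4, and none was called (limma; 2 had an unadjusted p under 0.05).

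The tissue label and the mixture of cells were examined with marker lists, summed as normalized intensities on the linear scale. All 10 probes of 8 lung epithelial genes were detected, with sums of 135357 to 141249 in hSRY-OFF and 149122 to 158357 in hSRY-ON lungs. Of these probes 3 were called higher and 0 lower, with 8 fitted changes above 0 and 2 below. Proliferating cell genes summed to 11279 to 14400 and 3686 to 8272, with 8 of 10 tested probes called lower. Macrophage genes summed to 25475 to 27059 and 37831 to 57307, with 8 of 13 called higher. Neutrophil genes summed to 4707 to 5320 and 8495 to 30071, with 3 of 5 called higher. Lymphocyte genes summed to 848 to 941 and 325 to 714, with 2 of 3 called lower, and Cd8a, Cd4, Ms4a1 and Rag1 were detected on no array. Cardiac muscle genes summed to 6321 to 8242 and 2369 to 3711, with 1 of 7 called each way. In hSRY-OFF lungs that sum was mostly Myl4, which fell by 1.94 on the log2 scale, while Mybpc3 rose by 0.96 and the median change of the 7 probes was 0.08. Erythroid genes summed to 58300 to 66548 and 58723 to 66323, with 0 of 5 called (limma; 1 had an unadjusted p under 0.05). The part of these shifts in the proteasome values was not tested.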

How the data were processed

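Per the file headers, each array has an intensity (mean bead signal, not log-transformed) and a detection p-value (from the negative control probes) for every probe, and the authors deposited them before background correction or normalization. Median intensities were 177.1 to 204.0, and 13191 to 14134 probes were detected per array. Bead summary settings are not given in the sources used here, and probe sequences and the authors' normalized values were not used.

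The study used the R package TCC, built for counts. Because the values are intensities, limma 3.58.1 (R 4.3.3) was used here, as in neqc: background from detection p-values, offset 16, quantile normalization, log2. Quantile normalization removes overall shifts. Background correction enlarges the fitted changes of dim probes, and the median absolute change over all probes was 0.32 with it and 0.19 without. Probes detected (p under 0.05) on at least 3 of 6 arrays were fitted without covariates, which left 13841. The pipeline was tested on simulated data. Of 13719 probes tested there, 200 were given a change of a preset size, and 104 of these (52%) were called. Of the 110 calls, 5.45% were false. The changed probes were far fewer than the 3728 called in the real data (limma), so these shares do not carry over to this comparison. No 2 arrays were identical. Same-numbered arrays had correlations of deviations of -0.107, 0.0957 and -0.0927 over probes, and the largest among other pairs was 0.162. With 3 arrays per group these values cannot exclude pairing, and the main fit did not pair arrays. The labels do not say whether the mice shared litters. If the hSRY-OFF mice carried the unrecombined transgene, they likely had other mothers, since eggs of Ddx4-Cre mothers recombine it. The cross and SRY could then not be told apart.

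Genes described in full were fixed by role (Psmb5 to Psmb7, Psmd4, Psmd14, Psme1 to Psme4) and by rank of p within a family (the 3 smallest and the largest), with all tested probes of a gene. Members and lists were chosen with earlier results of these data known. Older symbols were matched through RefSeq synonyms. The alternatives were other background corrections, normalizations, filters and variance models, a replicate block, 1 probe per gene and leaving out each array.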

Additional observations from a re-analysis of the deposited data

How the results depend on the processing

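Calls among proteasome probes numbered 6 in the main fit. That number stayed within 1.5 times under each other background correction, normalization, filter and variance model tried, and with 1 probe per gene. The genes called were not always the same. Psmd2, for one, lost its call without background correction and with median scaling, and Psmd10 gained one under 4 alternatives. The proteasome calls numbered 0 at an adjusted p under 0.01 (limma) and 0 to 8 when an array was left out. The calls over all probes numbered 1326 at the stricter threshold and 1504 to 4384 when an array was left out. With the replicate block, 3 proteasome probes (Psmc5, Psmd7 and Psmd14) were called and 1 of the ubiquitin-proteasome list. That list had 2 calls, 4 without background correction, 1 with one probe per gene, and 1 to 6 when an array was left out. The median change of the proteasome probes, -0.10, was 0.02 with median scaling, -0.01 with no background correction and a single scaling factor, and -0.15 to -0.03 when an array was left out; the causes were not tested. Of the 39 uncalled proteasome probes, 31 were called in none of the 17 alternatives tried on single probes. Fitted changes of uncalled probes took the other sign in 52 of 660 pairs of probe and alternative. Leaving out Psmc3ip was chosen after seeing the data. The number of arrays and, for dim probes, signal over background limit the precision.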
